A study of Capra hircus with 36 samples.

Results

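The miR-28, miR-151 and miR-708 family was represented by 9 of the 1391 mature miRNAs counted in 36 goat libraries. Its members were taken by name, as every entry for one of these 3 precursors, either arm, including entries named as conserved. Each precursor is a hairpin cut into 2 mature miRNAs, the 5p and the 3p arm. The family was chosen by read levels in tissues, namely the heart level of miR-708-3p (chi-miR-708-3p in the files), so levels across tissues are given as a description without a test.

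MicroRNAs are short RNAs that guide Argonaute proteins to matching sites in messenger RNAs and lower the output of these messages. The match is made mainly through the seed, a short stretch near the start of the mature miRNA. The 5p arms of miR-28 and miR-708 share their seed, whereas miR-151-5p carries a related stretch in a shifted position and therefore has another seed. In mammals miR-151 lies in an intron of PTK2, the gene of focal adhesion kinase, and miR-28 in an intron of LPP, a gene of cell adhesion. MiR-708 is known for its link to TENM4, a teneurin gene. In the ARS1.2 goat annotation, used here for gene names alone, MIR151 lay within PTK2 between AGO2 and DENND3, and MIR28 within LPP between TPRG1 and BCL6. MIR708 lay within no annotated gene and had TENM4 as a neighbour.

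The study asked how miRNA levels differ between goats living at low and high altitude. Heart, spleen, liver, kidney, lung and the longissimus, a skeletal muscle of the back (called muscle below), were taken from 3 Tibetan Goat females living at 3000 m and 3 Chuandong White Goat females living at 600 m, all adults of about 3 years. Each combination of tissue and population therefore had 3 libraries. Breed and altitude cannot be told apart, because each population was of 1 breed at 1 altitude. The study also lists different places, forms of rearing and body weights for the populations, and these cannot be told apart from altitude either. Library totals ran from 7108635 to 14407748 counts, with heart libraries between 10779449 and 12390408, and 3 counts correspond to 0.208 to 0.422 RPM (reads per 1000000 reads counted in the library). No 2 libraries held identical values.

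Tissue labels were checked against marker miRNAs. The heart muscle markers miR-208a, miR-208b and miR-499 summed to 20310 ± 3134 RPM in heart and 2773 ± 1514 in muscle (mean ± SD, n = 6 each). In the other tissues their mean was 146 RPM or less. The liver marker miR-122 was 6118 RPM or more in every liver library and at most 208 RPM elsewhere. Leukocyte markers had their highest mean in spleen and ciliated cell markers in lung. No list was highest in kidney, so the markers did not check that label. MiR-194-5p averaged 2397 (high altitude) and 2738 RPM (low altitude) in kidney, against 16900 and 16997 in liver. Epithelial markers averaged 2898 and 4308 RPM in kidney, against 7015 and 9695 in lung. The tissue labels were kept.

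The 6 named arms of the goat entries were abundant to moderate. Ranked by mean RPM over 36 libraries, miR-151-5p was number 31 (5118 RPM), miR-151-3p 45 (2531), miR-28-3p 48 (2468), miR-28-5p 78 (760.0), miR-708-3p 134 (141) and miR-708-5p 173 (63.7). The arms of miR-151 and miR-28 had reads in all 36 libraries, and those of miR-708 in 34. Among the conserved entries, which match another mammal's sequence in full, miR-28-3p averaged 10.8 RPM. It had 270 to 641 counts in 8 libraries and 0 in the other 28, and the 8 were from kidney, lung or spleen. The conserved entry for miR-151-5p reached 18 counts in 5 libraries, and that for miR-151-3p 5 counts in 3 libraries. Reads may have been divided between these entries and the goat entries of the same name, whose sequences were not compared here, so their values are uncertain.

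Heart was the tissue with the highest miR-708. MiR-708-3p measured 533, 318 and 587 RPM in the 3 high-altitude hearts and 342, 759 and 515 RPM in the 3 low-altitude hearts. All 6 hearts lay above the other 30 libraries, of which the highest, high-altitude liver replicate 3, had 307 RPM. The margin depended on the scaling. With the most abundant miRNA left out of each library total this liver library (374) passed the lowest heart (369.9), and with TMM scaling the lowest heart (361) was clear of the highest other library (283).

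By tissue mean, miR-708-3p was 509 ± 164 RPM in heart, 136 ± 84.6 in liver and 86.2 ± 22.6 in kidney (n = 6 each). It was 51.3 ± 35.6 RPM in lung, 31.7 ± 27.4 in spleen and 31.2 ± 12.4 in muscle. Only heart stood clear of its neighbour in this order, and each other pair of neighbours overlapped. Heart was 3.75 times liver (6.07 times with TMM scaling) and 7.57 times the mean of the other 5 tissues. Among 308 miRNAs with a mean of at least 10 RPM, the median of this last ratio was 0.489, and 36 (11.7%) had their highest mean in heart. Skeletal muscle is striated like heart, but it was at the low end for miR-708-3p together with spleen, which was the lowest with TMM scaling (23.9 against 55.3 in muscle). In bulk tissue, fewer cells of a type and less RNA per cell cannot be told apart.

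MiR-708-5p, the arm that shares its seed with miR-28-5p, had the same order of tissues. It measured 120.0, 154 and 156 RPM in high-altitude hearts and 120.1, 194 and 249 RPM in low-altitude hearts. The heart mean was 166 ± 49.4 RPM and the liver mean 94.6 ± 29.6 RPM (n = 6 each), and their libraries overlapped by RPM. With TMM scaling the lowest heart (142) was just above the highest other library (138). Kidney (43.0 ± 16.4), lung (29.4 ± 9.83), spleen (25.2 ± 23.8) and muscle (24.2 ± 9.74) followed. The arms of miR-708 went together over the 36 libraries, with a Pearson r of 0.933 of log2(RPM + 1), and these points share goats, tissues and library totals. They include low-altitude spleen replicates 2 and 3, where both arms were at 0, and r was not computed without these.

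MiR-708 was without reads in 2 libraries. Both arms had 0 counts in low-altitude spleen replicates 2 and 3, where 3 counts correspond to 0.345 and 0.334 RPM. The origin of these 0 counts could not be worked out, so they do not set an upper limit on the level in these goats. The remaining low-altitude spleen had 35.2 RPM of the 3p arm, and the high-altitude spleens 68.6, 50.6 and 35.98 RPM. Counts of 0 were also found for other miRNAs otherwise present in the tissue. Of miRNAs with a median of at least 10 RPM in the other 5 spleens, 14 of 258 had 0 counts in replicate 2 and 12 of 254 in replicate 3. In each replicate 2 of these were the arms of miR-708. Over all 36 libraries the number of such miRNAs at 0 ran from 1 to 19, with a median of 7. Whether other precursors lost both arms together was not tested.

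**Figure D1:**
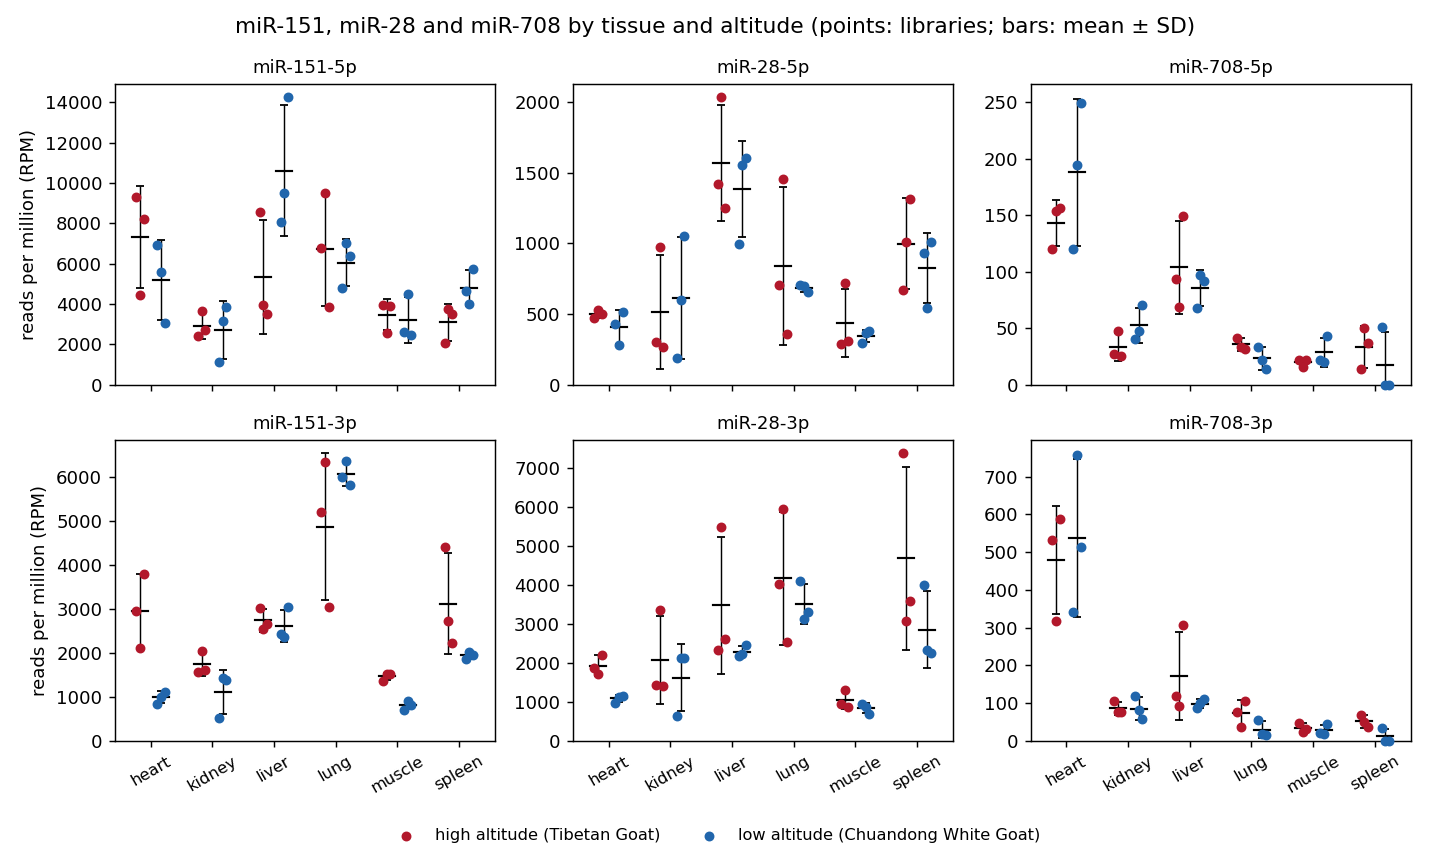
RPM (vertical axes, linear, each from 0) of the 5p arms (upper row) and 3p arms (lower row) of miR-151, miR-28 and miR-708 in 6 tissues; points are libraries, red for high and blue for low altitude, and black bars give the mean ± SD of each group of 3. MiR-708-3p has all 6 hearts above the other 30 libraries, and miR-151-3p has the 3 high-altitude hearts (2112 to 3784 RPM) above the low-altitude ones (849 to 1114 RPM).

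MiR-151-5p was the most abundant member and varied widely within tissues. Its mean was 7971 ± 3957 RPM in liver, 6383 ± 1956 in lung and 6248 ± 2340 in heart. In spleen it was 3947 ± 1226 RPM, in muscle 3336 ± 882 and in kidney 2826 ± 1001 (n = 6 each). All neighbours in this order overlapped. Liver was highest by RPM, but heart was highest with counts scaled by TMM effective library sizes. The 6 hearts held 9283, 4446 and 8202 RPM at high altitude, and the low-altitude values were 6910, 5604 and 3045 RPM.

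The other arm of the same hairpin had another order. MiR-151-3p was highest in lung, at 5458 ± 1254 RPM, and the lowest lung library (3050) was just above the highest liver library (3035) but below a high-altitude spleen (4401) and a high-altitude heart (3784). Liver (2674 ± 295), spleen (2527 ± 968), heart (1967 ± 1197), kidney (1425 ± 497) and muscle (1136 ± 368) followed, each overlapping the next. The tissue after lung depended on the scaling, since it was heart with TMM and spleen without the most abundant miRNA. Over the 36 libraries the 2 arms of miR-151 had an r of 0.537. MiR-151-3p and miR-28-3p, from different hairpins, had an r of 0.831.

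By RPM, miR-28 was higher in liver, lung and spleen than in heart and muscle on either arm, but with TMM scaling miR-28-5p was lower in lung (522) than in heart (584) and muscle (653). MiR-28-5p had means of 1477 ± 351 RPM in liver, 911 ± 273 in spleen and 763 ± 364 in lung. Kidney (564 ± 375), heart (454 ± 92.6) and muscle (391 ± 164) followed, and all neighbours overlapped. MiR-28-3p was led by lung (3843 ± 1186) and spleen (3773 ± 1899), whose order depended on the scaling, since spleen was the higher with TMM or without the most abundant miRNA. Liver (2886 ± 1287), kidney (1849 ± 931), heart (1512 ± 492) and muscle (943 ± 206) came after them.

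Together the family made up 1.66% ± 0.42 of lung counts, 1.52% ± 0.36 of liver and 1.12% ± 0.19 of spleen. Its share was 1.09% ± 0.36 in heart, 0.681% ± 0.26 in kidney and 0.586% ± 0.11 in muscle. Within the family, miR-708 supplied 6.15% of the counts in heart and 0.482% to 1.90% in the other tissues. MiR-151 supplied the largest part in all 6 tissues, from 58.0% in spleen to 76.5% in muscle.

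The miRNAs most like each member were found among 301 others by the Pearson r of log2(RPM + 1) over the 36 libraries, given as a description. For miR-708-3p they were miR-30e-5p (r = 0.693), miR-490-3p (0.677) and miR-30d-5p (0.637). MiR-490-3p had a mean of 490 RPM in heart and 4.21 in muscle, so it shared the gap between the 2 striated tissues. The closest to miR-708-5p were miR-30e-5p (0.682), miR-490-3p (0.600) and miR-27b-3p (0.578). MiR-28-3p had closer partners, with miR-25-3p at 0.903, miR-93-5p at 0.861 and miR-148b-3p at 0.850. MiR-28-5p was closest to miR-17-3p (0.859), miR-26b-5p (0.821) and let-7g-5p (0.820). MiR-151-3p was closest to miR-3431-3p (0.788), let-7i-5p (0.778) and miR-25-3p (0.773). MiR-151-5p was closest to miR-26a-5p (0.723), miR-361-3p (0.71) and miR-7134-5p (0.667). The conserved entry for miR-28-3p was closest to miR-218-5p (0.612), miR-10a-3p (0.481) and miR-10a-5p (0.468).

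The arm ratio, log2 of 5p over 3p counts with 0.5 added to each, showed which arm was read more within a library. MiR-151 had more 5p than 3p reads in 34 of 36 libraries. Its ratio was highest in heart, at 1.8 ± 0.79 (a 3.48-fold excess of 5p), then in muscle (1.58 ± 0.52) and liver (1.42 ± 0.74). It was 0.99 ± 0.31 in kidney, 0.65 ± 0.95 in spleen and 0.21 ± 0.31 in lung. Heart, muscle and liver overlapped, and by the median liver (1.61) was above muscle (1.56) and heart (1.55). Every heart, kidney and muscle library was above every lung library.

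MiR-28 had more 3p than 5p reads in all 36 libraries. Its log2 ratio was -0.91 ± 0.35 in liver, -1.33 ± 0.38 in muscle and -1.70 ± 0.43 in heart. In kidney it was -1.85 ± 0.49, in spleen -1.99 ± 0.81 and in lung -2.41 ± 0.29. Liver and muscle were each above lung in every library, and the other pairs of tissues overlapped.

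MiR-708 leaned to 3p by the mean in every tissue, and most in heart. The family was chosen by the 3p level in heart, so its ratios across tissues are given as a description without a test. The high-altitude hearts had log2 ratios of -2.15, -1.05 and -1.91 and the low-altitude hearts -1.51, -1.97 and -1.05, a mean of -1.60 ± 0.48. All heart libraries were below all liver libraries, by a narrow margin (highest heart -1.05, lowest liver -1.04). The liver mean was -0.41 ± 0.34, and kidney (-1.05 ± 0.83), lung (-0.54 ± 0.74) and muscle (-0.35 ± 0.48) overlapped heart. Spleen, without the 2 libraries that had no reads, was at -0.45 ± 1.28 (n = 4). Its median was 0.01, and the negative mean rested on high-altitude replicate 1 (-2.34, against -0.02, 0.04 and 0.53 in the others). Over 288 precursors with both arms, the median size of the mean log2 ratio was 3.74, so both arms of these 3 hairpins were read more evenly than those of most.

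**Figure D2:**
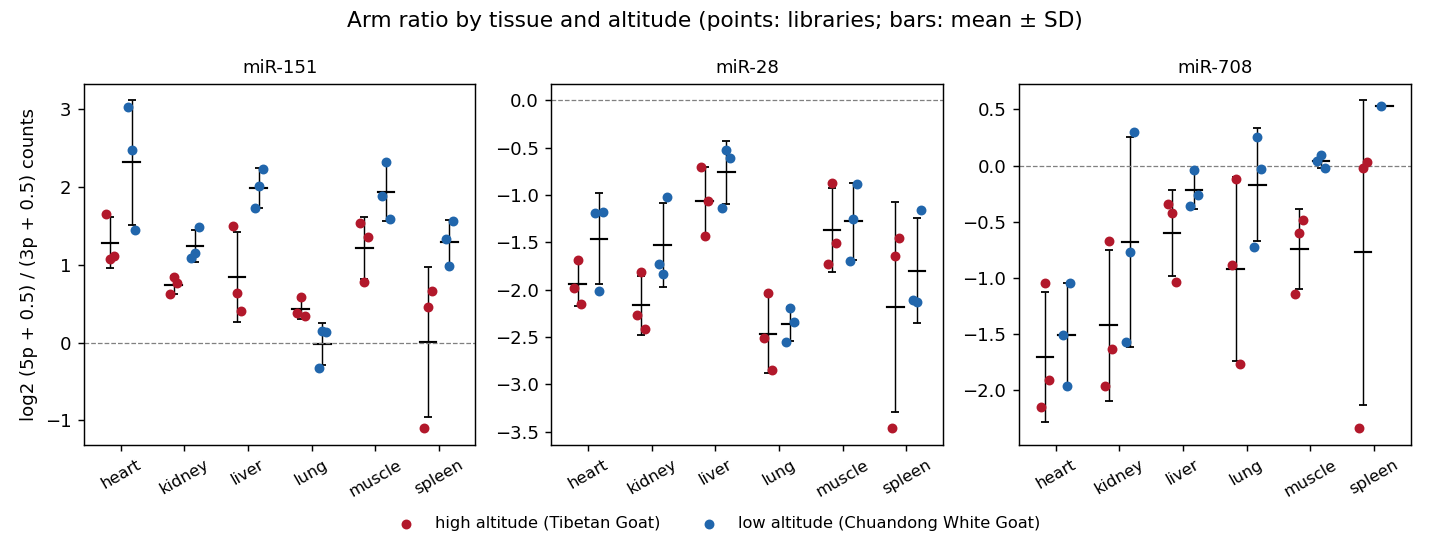
Arm ratio, log2 of (5p + 0.5) over (3p + 0.5) counts (vertical axes), of miR-151, miR-28 and miR-708 in 6 tissues; points are libraries, red for high and blue for low altitude, black bars give the mean ± SD of each group, and the dashed line marks equal arms. MiR-28 lies below 0 in all 36 libraries, and in lung the high-altitude libraries of miR-151 lie above the low-altitude ones, whereas in kidney, liver, muscle and spleen they lie below.

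Altitude was compared within each tissue, as 3 against 3 libraries, and a member was called where its adjusted p was under 0.05 and its log2 fold change was 1.5 or more in size. In heart, 0 of the 9 members were called by edgeR (0% of all 1391 miRNAs), and 2 had an unadjusted p under 0.05 (6.4% of all). Within each tissue, shares of all are over 1391 entries, also those without reads there, and heart libraries had reads of 524 to 595. They can therefore lie below the share among detected miRNAs. With replicate number as a block, 0 were called (0% of all) and 1, miR-151-3p, had an unadjusted p under 0.05 (5.68% of all). DESeq2 and edgeR's exact test called 0 members in each of the 6 tissues. Of all miRNAs, DESeq2 called 2.59% (heart), 1.73% (kidney), 2.23% (liver), 1.58% (lung), 2.16% (muscle) and 2.59% (spleen). The exact test called 0.791%, 0.0719%, 0.575%, 0.144%, 0.216% and 0.216% in the same order. Among 308 miRNAs of at least 10 RPM, 22.7% had all 3 high-altitude hearts above all low-altitude hearts, so such a separation was common in heart.

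MiR-151-3p had the largest altitude difference of the 6 goat arms in heart. It measured 2939, 2112 and 3784 RPM at high altitude, and the low-altitude values were 849, 1007 and 1114 RPM. The groups did not overlap. The log2 fold change of high over low altitude was 1.40 (SE 0.27), with an edgeR adjusted p of 0.237, and it did not pass. DESeq2 gave an adjusted p of 0.00163 at the same log2 fold change of 1.40, below the minimum of 1.5. Over all alternatives the adjusted p ran from 0.00163 to 0.936 and the log2 fold change from 1.14 to 1.57. The 1.57, past the minimum, came with library size alone, where the edgeR adjusted p was 0.198.

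MiR-28-3p also had separate groups in heart. It measured 1871, 1707 and 2218 RPM at high altitude, and the low-altitude values were 983, 1132 and 1165 RPM. The 3 high-altitude values were above the 3 others, and the log2 fold change was 0.65 (SE 0.22, edgeR adjusted p = 0.615). The other 4 goat arms overlapped between altitudes in heart, with log2 fold changes from -0.53 to 0.28. MiR-708-3p, the member that stood out in heart, had a log2 fold change of -0.34 (SE 0.38, edgeR adjusted p = 1), which was 0.00 without low-altitude replicate 2.

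Of 12 marker lists, 5 also had higher summed levels in all 3 high-altitude hearts. The smooth muscle list (3 entries for 2 miRNAs) summed to 180756, 115865 and 189297 RPM at high altitude, and the low-altitude values were 68517, 75540 and 58915 RPM. MiR-143-3p was its most abundant entry, the conserved miR-145 entry was at 0 in all 6 hearts, and miR-145-5p was lower at high altitude (235, 770.0 and 264 RPM against 796, 1309 and 1383). The leukocyte list (4 of 4 found, led by miR-142-5p) summed to 3460, 1904 and 2766 RPM against 1892, 1845 and 1494, with no marker at 0. The remaining 3 lists were epithelial or ciliated markers, with group means of at most 157 RPM. Their part in the differences of miR-151-3p and miR-28-3p was not tested. Heart muscle markers overlapped, at 23967, 18463 and 17014 RPM against 17523, 20935 and 23956.

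In kidney, 0 of 9 members were called by edgeR (0% of all), and 1 had an unadjusted p under 0.05 (4.6% of all). This was miR-151-3p, with 1557, 2044 and 1608 RPM at high and 530, 1422 and 1388 RPM at low altitude. The groups did not overlap, as for 5.19% of miRNAs in this direction. The log2 fold change was 0.84 (SE 0.35, edgeR adjusted p = 0.959). Striated muscle markers (2 of 2 found, led by miR-133a-3p) were also separated in kidney, at 764, 664 and 1053 RPM against 99.9, 302 and 301, as were the heart muscle and ciliated cell lists. Their part was not tested.

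In muscle, 0 of 9 members were called by edgeR (0.0719% of all), and 1 had an unadjusted p under 0.05 (6.18% of all). This was again miR-151-3p, with 1363, 1508 and 1520 RPM at high and 710, 901 and 817 RPM at low altitude. The groups did not overlap, as for 10.1% of miRNAs in this direction, and the log2 fold change was 0.98 (SE 0.38, edgeR adjusted p = 0.746). Smooth muscle markers were separated in the same direction, at 55241, 23012 and 51074 RPM against 17366, 21060 and 22234. Striated muscle markers were separated in the other direction, at 238099, 246039 and 181732 RPM against 258155, 277361 and 280684. Epithelial markers, with a mean of at most 41.8 RPM, were higher at high altitude, and the part of these lists was not tested.

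In spleen, 0 of 9 members were called by edgeR (0.144% of all), and 0 had an unadjusted p under 0.05 (5.75% of all). The arms of miR-151 were separated in opposite directions. MiR-151-3p measured 4401, 2716 and 2224 RPM at high and 1849, 2025 and 1949 RPM at low altitude. The log2 fold change was 0.67 (SE 0.43, edgeR adjusted p = 0.730), and it fell to 0.17 without high-altitude replicate 1, which had the 4401 RPM. Separation upwards was found for 10.1% of miRNAs. MiR-151-5p measured 2053, 3746 and 3510 RPM at high and 4634, 3994 and 5743 RPM at low altitude, and its log2 fold change was -0.71 (SE 0.31, edgeR adjusted p = 0.729). Separation downwards was found for 13.6%. Smooth muscle markers, led by miR-143-3p, were lower at high altitude, at 356084, 400367 and 367739 RPM against 409401, 563335 and 447855, and their part was not tested. Ciliated cell and miR-206 lists, with means of at most 35.0 RPM, were higher.

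The size of the difference of miR-708 in spleen rested on the 2 libraries without reads. With them the log2 fold change of miR-708-3p was 2.23 (SE 2.22, edgeR adjusted p = 0.908). Without them, a choice made after seeing the data, 3 libraries stood against 1, and the value was 0.64, given without a test. MiR-708-5p overlapped between altitudes in spleen, and its log2 fold change was 0.96 with the 2 libraries and -0.62 without them.

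In liver and lung 0 of 9 members were called by edgeR (0% of all in either tissue), and 0 had an unadjusted p under 0.05 (4.24% and 4.74% of all). No goat arm was separated between altitudes there, against 19.5% and 20.8% of miRNAs of at least 10 RPM. Log2 fold changes of the goat arms ran from -0.82 (miR-151-5p) to 1.07 (miR-708-3p) in liver and from -0.21 (miR-151-3p) to 1.68 (miR-708-3p) in lung. In lung miR-708-3p measured 76.9, 36.7 and 106 RPM at high and 55.7, 18.3 and 14.3 RPM at low altitude, with an edgeR adjusted p of 0.832. With a goat left out, its log2 fold change ran from 1.11 to 2.61 in lung, and in liver it fell to 0.24 without high-altitude replicate 3, which had 307 RPM. That of miR-151-5p in liver ran from -1.46 to -0.44.

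Across tissues, miR-28-3p had a log2 fold change above 0 in 6 of 6 (0.33 to 0.74 under TMM) and miR-151-3p in 5 of 6, and these counts were the same under RLE and library size alone. The share of all miRNAs with such counts is not given, so the counts alone do not set these arms apart. Since 6 tissues of 1 goat are not independent, log2 levels were averaged over tissues for each goat. MiR-28-3p then had 11.44, 11.20 and 11.18 in the high-altitude goats and 10.89, 10.79 and 10.55 in the low-altitude goats. MiR-151-3p had 11.65, 10.97 and 11.41 against 10.68, 10.82 and 10.63. Both were separated, as were 13% of 532 miRNAs in this direction.

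Neither passed the test at goat level. The difference was 0.53 for miR-28-3p (95% confidence interval 0.12 to 0.94, limma adjusted p = 0.136) and 0.63 for miR-151-3p (0.12 to 1.14, limma adjusted p = 0.143). No member was called by limma (2.63% of all), and 2 members had an unadjusted p under 0.05 (22.9% of all). Whether the altitude difference varied between tissues was tested by the interaction of tissue and altitude. EdgeR called 0 of 9 members (0.216% of all), and 0 had an unadjusted p under 0.05 (6.69% of all). The adjusted p was 0.987 for miR-151-3p and 1 for miR-28-3p, so the different results in heart and lung are not shown to differ. With each goat as a block, 0 members were called (0.144% of all) and 1 had an unadjusted p under 0.05 (6.61% of all), which was miR-151-3p (edgeR adjusted p = 0.728).

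The arm ratio of miR-151 had its largest altitude differences in spleen, liver and heart. In spleen the log2 ratios were -1.10, 0.46 and 0.66 at high and 1.33, 0.98 and 1.56 at low altitude. In liver they were 1.5, 0.64 and 0.41 at high and 1.73, 2.01 and 2.23 at low altitude. The high-altitude values were lower without overlap in both tissues, as for 17.4% and 12.1% of precursors. Without high-altitude replicate 1, the spleen with the -1.10, the difference in spleen was -0.73.

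The same direction was seen for miR-151 in kidney (0.62, 0.85 and 0.76 against 1.09, 1.15 and 1.48) and muscle (1.54, 0.77 and 1.36 against 1.89, 2.32 and 1.59). Separation in this direction was found for 15.3% and 14.6% of precursors. In heart the ratios were 1.66, 1.07 and 1.12 against 3.03, 2.48 and 1.45, and the groups overlapped, while 20.5% of precursors were separated downwards there. In lung the direction was the opposite, with 0.38, 0.58 and 0.34 against -0.33, 0.15 and 0.13, as for 11.1% of precursors.

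The differences in log2 ratio were -1.28 in spleen, -1.14 in liver, -1.03 in heart, -0.71 in muscle, -0.50 in kidney and 0.45 in lung. With a goat left out, the difference ran from -1.47 to -0.68 in heart and from 0.30 to 0.54 in lung. Limma called 0 of the 3 precursors in each tissue other than spleen. In spleen neither miR-151 nor miR-28 was called, and miR-708, with 3 libraries against 1, is left out of this count. Over all precursors, the share called was 2.8% (heart), 0.441% (kidney), 1.67% (liver), 0% (lung), 0% (muscle) and 0.81% (spleen). The only unadjusted p under 0.05 was that of miR-151 in liver (limma adjusted p = 0.345, 95% confidence interval -2.24 to -0.05), where 13.4% of precursors had one. The share with one was 21.5% in heart, 15.4% in kidney, 15.2% in lung, 12.4% in muscle and 13.4% in spleen. No other tool was run on the ratios.

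In liver and lung too, marker lists were separated between altitudes. In liver the red blood cell list (2 of 2 found, led by the conserved miR-486-5p entry) summed to 30.1, 6196 and 4283 RPM at high and 8704, 9581 and 8360 RPM at low altitude, with miR-144-5p at 0 in high-altitude replicate 3. Heart muscle markers (led by miR-499-5p, with miR-208a at 0 in all 6 livers) were higher, at 287, 227 and 187 RPM against 17.8, 141 and 19.5. In lung, smooth muscle markers (led by miR-143-3p, with the conserved miR-145 entry at 0) were lower, at 149442, 154167 and 253381 RPM against 290095, 301529 and 264381. Heart muscle markers, miR-122 and miR-194, with group means of at most 217 RPM, were higher in lung. The part of these lists in the ratios of miR-151 was not tested.

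MiR-28 had lower mean ratios at high altitude in 6 of 6 tissues, as did 11.9% of 227 precursors, and miR-708 in the 5 tissues with 3 libraries in each group. For miR-28 the differences ran from -0.63 to -0.10 and the groups overlapped in every tissue. For miR-708 they ran from -0.78 to -0.20 in these 5 tissues. In muscle miR-708 had -1.15, -0.60 and -0.49 at high and 0.04, 0.09 and -0.02 at low altitude, without overlap (limma adjusted p = 0.424). In spleen a single low-altitude library had reads, and its value of 0.53 was above the high-altitude ones of -2.34, -0.02 and 0.04. This difference of -1.31 is given without a test. With a goat left out it ran from -1.71 to -0.53, the latter without high-altitude replicate 1. Over the alternatives it ran from -2.87 to -1.28.

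Ratios were also averaged over tissues for each goat, a test added after seeing the data, with miR-708 taken over the 5 tissues other than spleen. MiR-151 had 0.77, 0.73 and 0.77 in the high-altitude goats and 1.45, 1.51 and 1.41 in the low-altitude goats. The groups were separated, as for 17.6% of 256 precursors in this direction. The difference was -0.70 (95% confidence interval -1.15 to -0.26, limma adjusted p = 0.0944). For miR-28 it was -0.33 (-0.95 to 0.28, limma adjusted p = 0.468) and for miR-708 -0.57 (-1.33 to 0.19, limma adjusted p = 0.338), and their goats overlapped. With a goat left out, the difference of miR-28 ran from -0.48 to -0.17. Limma called 0 of the 3 precursors (5.47% of all), and 1 had an unadjusted p under 0.05 (23.4% of all).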

How the data were processed

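Small RNA libraries (Illumina TruSeq kit, HiSeq, base calling with CASAVA 1.8) were mapped by the authors with Bowtie to goat assembly ARS1, allowing 0 mismatches over the read, so reads with an error, an edited base or an added tail were not counted. With miRDeep2 and the goat and mammal miRNAs of miRBase release 21, the authors counted reads per mature miRNA, dropped those that reached 3 reads in no library, and deposited raw counts without normalization. Tissue, population and replicate came from the sample labels.

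RPM was computed here as counts per 1000000 of the library's sum over all miRNAs. Floors cover counting error only. Fold changes are high over low altitude, from edgeR 4.0.16 in R 4.3.3 (TMM, quasi-likelihood test, all 1391 miRNAs, Benjamini-Hochberg). The study named edgeR and the thresholds but not the test. Goat means and arm ratios were tested with limma 3.58.1 (trend), on log2(CPM + 0.5) for miRNAs of at least 1 CPM, and on precursors with a mean of at least 20 counts over both arms. Ratios summed the entries of an arm, and libraries with 0 reads of both arms were left out. Python 3.11.15 and pandas 2.3.3 were used for levels.

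Members and lists were chosen with earlier results of these data known. Levels are given for arms with a mean of at least 10 RPM, by tissue for the goat entries alone. Altitude values are given where the unadjusted p was under 0.05 or the groups did not overlap. They are also given for some members that met neither rule, such as miR-708-3p in heart and lung. Other miRNAs were named as the 3 of highest r for each arm. The comparison of miR-145-5p with its list was chosen after its values were seen. Entries called new by the authors, which carry serial numbers, were left out. The fits were tested on simulated data. Alternatives were DESeq2 1.42.0, other scalings, filters, tests, pseudocounts and scales, 1 fit over all libraries, summed copies, replicate number as a block, and each goat left out.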

Additional observations from a re-analysis of the deposited data

Results flagged for a closer look

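Among the 6 libraries of a tissue, a single library stood far from the others in 9 of 54 sets of levels and arm ratios. All 9 were sets of levels. The cutoff would be passed by about 1 in 20 sets of independent, normally distributed values. These sets share libraries and mix 2 populations, so the count does not show an excess over chance. High-altitude liver replicate 3 was the highest liver for miR-708-3p (307 RPM, next 118) and for miR-708-5p (149 RPM, next 97.1). High-altitude liver replicate 2 was the highest liver for miR-28-3p (5494 RPM, next 2611). High-altitude spleen replicate 1 was the highest spleen for miR-28-3p (7385 RPM, next 4001) and for miR-151-3p (4401 RPM, next 2716), and it had the lowest total of the spleen libraries, 7312782 counts. For miR-28-5p, replicate 2 of high-altitude lung (1453 RPM, next 707.7) and of high-altitude muscle (717 RPM, next 376) were the highest of their tissues. High-altitude lung replicate 3 was the lowest lung for miR-151-3p (3050 RPM, next 5193), and low-altitude muscle replicate 3 the highest muscle for miR-708-5p (43.4 RPM, next 21.9). The part of these libraries in the tissue means was not tested.

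The arm ratio of miR-151 was separated between altitudes in opposite directions, although no tissue passed the test. All high-altitude libraries were above the low-altitude ones in lung (difference in log2 ratio 0.45) and below them in kidney (-0.50), liver (-1.14), muscle (-0.71) and spleen (-1.28). A limma test of the tissue and altitude interaction over all 36 libraries, added after seeing the data, gave miR-151 an adjusted p of 0.410, and 0.412 with each goat as a block. Of 227 precursors 1 was called in either fit (0.441%), so the difference between tissues did not pass.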

How the results depend on the processing

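Counts of members or precursors called stayed at 0 in every comparison and alternative, with 1 exception. The interaction of tissue and altitude gave 0 to 2 members (0 to 10 of 1391 miRNAs) when each goat was left out. Without low-altitude replicate 1, where 5 miRNAs were called, the 2 were miR-708-5p and miR-708-3p (edgeR adjusted p = 5.8e-05 and 0.000622), because the 2 low-altitude spleens then left both had 0 counts. Of the altitude differences refitted under every alternative and without each goat, 2 reversed, neither of them called. That of miR-708-5p in spleen was -0.62 without the 2 libraries that had no reads, and that of miR-708-3p in heart ran from -0.59 to 0.00075 with a goat left out. Of the other goat arms, miR-708-3p in kidney changed sign with the scaling (-0.08 with TMM, 0.02 with RLE or library size alone). The log2 fold change of miR-151-3p in heart was 1.23 to 1.49 with a goat left out (edgeR adjusted p 0.113 to 0.844). That of miR-708-3p in spleen ran from 1.65 to 11.9, the largest without the only low-altitude spleen with reads.

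Replicate numbers belong to different goats in the 2 populations, and 7 of 18 correlations between same-numbered libraries exceeded 0.1 (-0.46 to 0.51). Heart was the only tissue where all 3 did (0.35 to 0.51), and no label says what a number shares. The main fits were left unpaired. Replicate number as a block changed no call, with 0 members in each tissue. In heart it gave 1.37 for miR-151-3p (edgeR adjusted p = 0.429) and 0.65 for miR-28-3p (edgeR adjusted p = 0.865), whose unadjusted p was then no longer under 0.05. Goat as a block gave 0 in the interaction test, where miR-151-3p had an edgeR adjusted p of 0.728. Library size alone moved the median log2 fold change of the 308 miRNAs of at least 10 RPM in heart from 0.01 to 0.16. No filter is the same as the fit used, which kept all entries.

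MiR-708-5p and miR-708-3p were highest in heart under each of 4 scalings or summaries, joined by miR-151-5p with TMM (3 of 7 entries in place of 2). Of the tissue levels and arm ratios, 26 values moved by more than 1 SD, all of them levels under another scaling. Each population had 3 goats, and a lack of calls does not show that levels were equal. Counts of 0 in single libraries decide the fold changes of miR-708 in spleen.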
